A study of Rattus norvegicus with 9 samples.

Results

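The nuclear genes of oxidative phosphorylation were followed in the blood transcriptome of rats as the rows of the gene table whose name starts with Nduf, Sdh followed by a, b, c or d, Uqcr, Cox followed by 4 to 8, or Atp5. The rule found 87 of the 12854 rows, which carried 83 distinct symbols: 38 rows named for complex I, 4 for complex II, 8 for complex III, 13 for complex IV, 16 for complex V and 8 for assembly factors. Fresh whole blood was incubated for 15 min with DNAgel, a hydrogel of crosslinked salmon sperm DNA, in the DNAgel group, or with gelatin sponge, a commercial hemostatic material, in the GS group. Blood in the Control group was untreated. Each group had 3 libraries, and all 9 were poly(A)-selected, strand-marked RNA libraries of blood without a sort of its cells. Nothing in the sources used here ties the libraries to separate rats, and a p-value below sets a difference against the spread among libraries, which may be technical. For the Control group the sources give no time of incubation, so contact with a material and time outside the body cannot be told apart in a comparison with Control. The rats of the study were male Sprague-Dawley animals at an age of 6 weeks, which all groups share with the collection of fresh blood. The labels of the libraries give no strain, age or sex of their own.

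Oxidative phosphorylation couples the transfer of electrons along complexes I to IV of the inner mitochondrial membrane to the synthesis of ATP by complex V. Complexes I, III, IV and V are built from subunits of both genomes: the mitochondrial genome encodes some of the catalytic and membrane subunits, and the nucleus encodes all others, all of complex II and the assembly factors. Mature red cells have no mitochondria, reticulocytes lose theirs as they mature, and platelets and leukocytes keep theirs.

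The libraries held 51838917 to 68076324 counts, of which the hemoglobin genes took 95.8% on average, so that 2344910 to 3216776 counts per library remained for all other genes. Between 6029 and 8417 genes had a count, the highest number in Control 3. Apart from 0, the count that occurred most often was 4 in each of the 9 libraries, and low counts were therefore not read as single molecules. Markers of blood cells were present as the label says. Alas2, the first enzyme of heme synthesis in erythroid cells, averaged 819 FPKM and Pf4, a platelet chemokine, averaged 357 FPKM. S100a9 of neutrophils averaged 9.95 FPKM, Lyz2 of the monocyte markers 5.67 FPKM and Cd3g of T cells 0.753 FPKM. Each was among the highest of the fixed marker list it belongs to, and levels within a list differed widely. Among platelet markers Clec1b averaged 41.9 FPKM and Itga2b 0.822 FPKM. Among neutrophil markers S100a8 averaged 6.92 FPKM and Csf3r 0.0361 FPKM, and among monocyte markers Apoe 3.35 FPKM and Csf1r 0.119 FPKM. These are bulk libraries, in which fewer cells of a type and less RNA per cell cannot be told apart. FPKM, the count scaled to transcript length and library total, was used wherever genes are compared with each other.

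As a class, the nuclear genes of oxidative phosphorylation stood high in the blood table. A mean of at least 1 FPKM over the 9 libraries was reached by 34 of the 87 rows, which is 39.1%, against 7.31% of the whole table. At least 10 FPKM was reached by 16 rows, which is 18.4%, against 2.04% of the table. The members were nevertheless far apart. The 10 highest rows held 83.6% of the summed FPKM of all members, and the highest row alone held 35.0% and stood 617-fold above the median member at 0.592 FPKM.

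**Figure D1:**
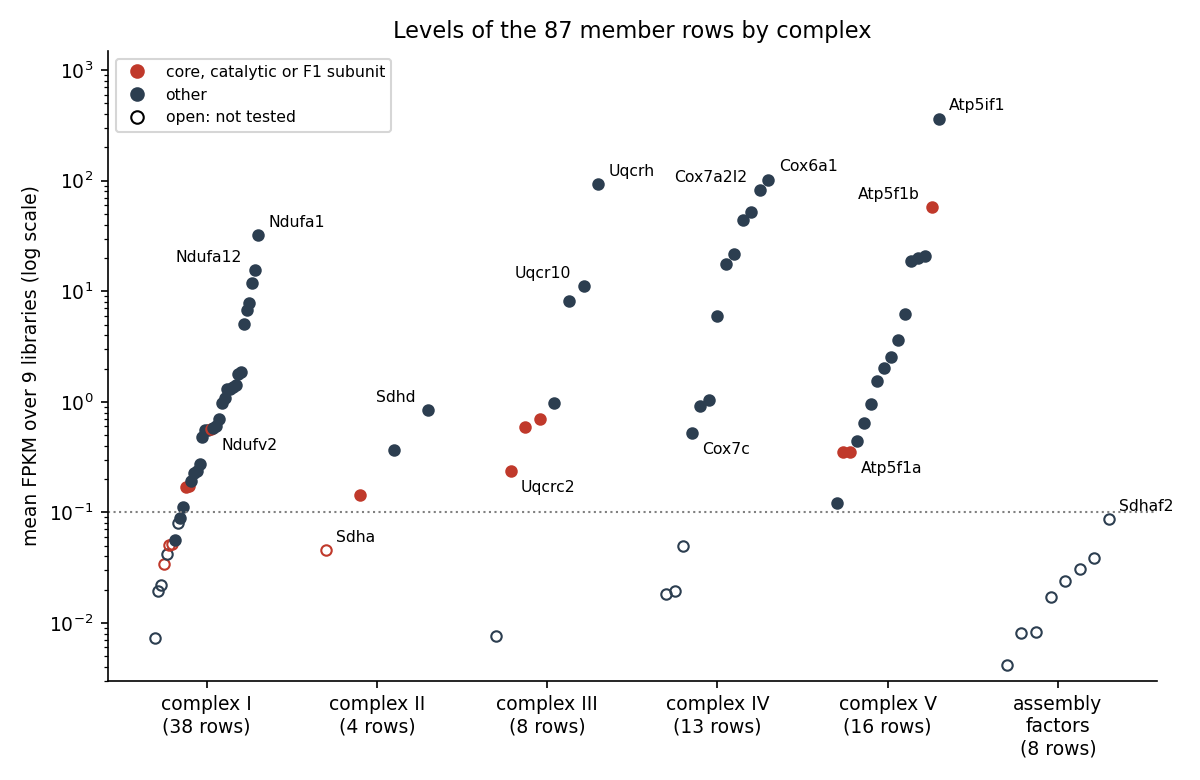
Mean FPKM over the 9 libraries of each of the 87 rows (log scale), by complex, with core, catalytic or F1 subunits in red, other rows in dark blue and rows that were not tested as open circles. The dotted line is at 0.1 FPKM. The red points lie at or under 0.702 FPKM, with Atp5f1b at 57.6 FPKM as the exception, and the 8 assembly factors all lie under the line.

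In complex V the highest member was the inhibitor of the enzyme. Atp5if1 (ENSRNOG00000013300, chromosome 5 from 144738950 to 144742668 on the minus strand in the coordinates of the table, to which no build is assigned) encodes the factor that blocks ATP hydrolysis by the synthase when the membrane potential falls. It had 352, 345 and 357 FPKM in the DNAgel libraries, 370, 384 and 344 FPKM in the GS libraries and 398, 374 and 362 FPKM in the Control libraries. It was the highest of all 87 rows in every group, and its coefficient of variation over the 9 libraries was 4.96% in FPKM and 13.5% as a share of the FPKM without hemoglobin genes. Atp5f1b, the catalytic beta subunit of the F1 head, followed with 48.8, 59.5 and 61.9 FPKM with DNAgel, 48.0, 56.9 and 56.1 FPKM with GS and 56.3, 62.2 and 68.3 FPKM in Control. Atp5if1 exceeded Atp5f1b by 5.31 to 7.70 times in FPKM, but by 1.43 to 2.08 times in raw counts. The direct partners of Atp5f1b were far lower. The alpha subunit Atp5f1a, which alternates with beta in the F1 ring, had 0.219, 0.667 and 0.264 FPKM with DNAgel, 0.273, 0.289 and 0.0813 FPKM with GS and 0.333, 0.350 and 0.676 FPKM in Control. The FPKM ratio of beta to alpha was between 89.3 and 689 with a median of 178. In raw counts it was between 67.9 and 526, so that this gap does not rest on the lengths used for scaling alone. Atp5f1d, the delta subunit of the central stalk, averaged 0.349 FPKM. The genes of the peripheral stalk, Atp5pb, Atp5pd, Atp5pf and Atp5po, ranged from 2.01 to 19.8 FPKM, and those of the proton-conducting c ring, Atp5mc1, Atp5mc2 and Atp5mc3, from 0.122 to 0.648 FPKM.

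In complex IV, which transfers electrons to oxygen, the nuclear rows are supernumerary subunits that surround the mitochondrially encoded core. The highest was Cox6a1, the widely expressed form of subunit 6A, with 109, 92.1 and 87.2 FPKM in DNAgel, 105, 106 and 124 FPKM in GS and 109, 106 and 82.8 FPKM in Control. Cox7a2l2, a row that the table describes as subunit 7A2, averaged 81.7 FPKM, Cox7b 51.6 FPKM, Cox6b1 44.2 FPKM, Cox6c 21.6 FPKM and Cox4i1 17.6 FPKM. Cox5a and Cox5b, which are present once in each copy of the same enzyme, averaged only 1.03 and 0.919 FPKM, and Cox7c 0.521 FPKM. The FPKM of Cox6a1 exceeded that of Cox5a by 47.8 to 181 times in single libraries. In raw counts the ratio was smaller, at 17.5 to 65.6, so the size of the gap depends on the lengths used for scaling.

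Complex III showed the same kind of gap. Uqcrh, the hinge protein at cytochrome c1, had 98.4, 93.1 and 105 FPKM with DNAgel, 96.5, 89.2 and 95.0 FPKM with GS and 87.2, 89.9 and 88.6 FPKM in Control. Uqcr10 averaged 11.2 FPKM and Uqcrq 8.14 FPKM. The 3 core members, Uqcrc1, Uqcrc2 and the Rieske iron-sulfur protein Uqcrfs1, averaged 0.592, 0.236 and 0.702 FPKM. Uqcrh exceeded Uqcrc1 by 94.7 to 290 times in FPKM in single libraries, and by 65.3 to 198 times in raw counts. Cyc1, the cytochrome c1 subunit, lies outside the name rule.

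Complex I was led by supernumerary subunits. Of the membrane arm, Ndufa1 averaged 32.1 FPKM, Ndufb11 11.9 FPKM, Ndufb8 7.81 FPKM and Ndufa11 6.74 FPKM, and Ndufa12 of the matrix arm averaged 15.5 FPKM. The 6 rows of core subunits, which carry the flavin and the iron-sulfur clusters or hold them in place, ranged from 0.0341 FPKM for Ndufv1 to 0.565 FPKM for Ndufv2 with a median of 0.112 FPKM, and 3 of the 6 were tested. Ndufs1, which carries iron-sulfur clusters of the electron path, had 8, 0 and 12 counts with DNAgel, 13, 15 and 16 counts with GS and 0, 19 and 16 counts in Control. Ndufa4, named for complex I but later placed in complex IV, averaged 0.583 FPKM. All 4 genes of complex II, succinate dehydrogenase, were low: the membrane anchors Sdhd and Sdhc averaged 0.844 and 0.369 FPKM, the iron-sulfur subunit Sdhb 0.145 FPKM and the flavoprotein Sdha 0.0453 FPKM. None of the 8 assembly factors reached the filter for a test, and the highest, Sdhaf2, averaged 0.0872 FPKM.

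Several rows limit what their names mean. Ndufs6 is on a row that the table types as a pseudogene, while an unnamed row outside the rule, ENSRNOG00000062531, is described as the same subunit and averaged 1.20 FPKM. Atp5mc1 is typed as a long noncoding RNA. The Ndufa7 and Ndufb2 rows carry the descriptions of neighbouring genes, and 4 symbols (Atp5mk, Ndufa10l1, Ndufs5 and Uqcrb) have 2 rows each. Many subunits have near-identical processed copies in the genome, so their counts are uncertain where reads could be split between copies. Of the 110 rows that the table assigns to the oxidative phosphorylation pathway, 72 are members. The rows outside the rule include 13 mitochondrially encoded subunits and 15 subunits of the vacuolar proton pump.

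Several complex IV subunits and the c ring exist as paralogs. The fixed subunit 7A set named Cox7a1, Cox7a2 and Cox7a2l. Cox7a2 has no row, and Cox7a2l2 was added to the set. A row outside the rule, described as subunit VIIa polypeptide 2-like 2, averaged 1.57 FPKM and was left out. Within the set so made, Cox7a2l2 held 91.0% to 94.5% of the summed FPKM per library. Cox7a2l, a factor of supercomplex assembly, held a median of 6.97%. The heart and muscle form Cox7a1 held at most 0.167%. Cox7b held at least 99.8% against at most 0.212% for Cox7b2, a testis form in human. Of Cox8, only the Cox8c row was analysed here, and it had counts in 2 libraries, with 11 in GS 1 and 7 in Control 3. Among the c ring genes, Atp5mc2 held a median of 55.8%, Atp5mc3 36.1% and Atp5mc1 9.53% of the summed FPKM. Those 3 encode the same mature protein. The share of Atp5mc2 was between 35.2% and 74.2% in single libraries, at 17 to 83 counts, and the part of the low counts in this spread was not tested.

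The start regions of these genes are shown because the levels inside one complex were so unequal while the genes are known to share regulators in mammals: NRF1 and the ETS factor GABP bind many of their promoters. Windows of 250 bases before the start site were taken from RefSeq (GRCr8), and 70 of the 87 rows were matched by symbol and chromosome. Capitals mark matches on either strand to the NRF1 core TGCGCA, the ETS motif CCGGAAG, the GATA motif AGATAA and the CCAAT box CCAAT. The pairs are the high Atp5f1b and the low Atp5f1a of the F1 head (chr7:1099808-1100057 and chr18:73567287-73567536, both plus strand), the high Uqcrh and the low Uqcrc1 of complex III (chr5:134790883-134791132, minus strand, and chr8:118467973-118468222, plus strand), and then the highest row Atp5if1 (chr5:150026678-150026927, minus strand) and the low Sdha (chr1:30764303-30764552, plus strand).
Atp5f1b: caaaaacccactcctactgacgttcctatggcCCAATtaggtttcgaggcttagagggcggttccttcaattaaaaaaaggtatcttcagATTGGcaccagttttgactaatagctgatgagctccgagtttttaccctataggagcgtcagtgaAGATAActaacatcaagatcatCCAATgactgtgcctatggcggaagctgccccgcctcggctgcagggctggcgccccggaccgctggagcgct
Atp5f1a: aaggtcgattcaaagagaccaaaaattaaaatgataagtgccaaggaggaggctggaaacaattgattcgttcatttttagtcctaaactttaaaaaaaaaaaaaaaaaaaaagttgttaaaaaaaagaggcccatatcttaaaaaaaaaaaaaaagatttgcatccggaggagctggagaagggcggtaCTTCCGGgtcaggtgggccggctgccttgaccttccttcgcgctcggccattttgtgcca
Uqcrh: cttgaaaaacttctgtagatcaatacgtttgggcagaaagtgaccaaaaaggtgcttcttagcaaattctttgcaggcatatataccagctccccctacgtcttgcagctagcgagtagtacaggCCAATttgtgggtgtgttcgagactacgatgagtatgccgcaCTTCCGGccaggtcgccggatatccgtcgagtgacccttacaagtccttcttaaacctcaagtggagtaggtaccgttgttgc
Uqcrc1: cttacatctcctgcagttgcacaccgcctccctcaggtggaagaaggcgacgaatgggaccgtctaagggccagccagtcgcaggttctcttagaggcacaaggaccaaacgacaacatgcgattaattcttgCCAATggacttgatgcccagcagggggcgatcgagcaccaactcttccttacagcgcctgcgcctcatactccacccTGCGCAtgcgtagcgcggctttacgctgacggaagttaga
Atp5if1: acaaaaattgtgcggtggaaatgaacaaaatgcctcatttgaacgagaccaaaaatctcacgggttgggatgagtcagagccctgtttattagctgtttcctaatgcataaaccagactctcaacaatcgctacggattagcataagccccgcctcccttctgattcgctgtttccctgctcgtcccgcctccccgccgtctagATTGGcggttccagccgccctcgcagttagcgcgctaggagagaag
Sdha: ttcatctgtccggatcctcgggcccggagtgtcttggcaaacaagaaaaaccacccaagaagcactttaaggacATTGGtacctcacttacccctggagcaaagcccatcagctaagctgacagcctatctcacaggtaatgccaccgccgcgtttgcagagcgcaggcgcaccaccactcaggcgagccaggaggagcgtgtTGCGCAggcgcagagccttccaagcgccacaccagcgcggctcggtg

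The NRF1 core was found in 19 of the 70 windows (27.1%), against 6.78% of all 24206 promoters of the same length, and the ETS motif in 20 (28.6%), against 8.06%. At least one of these motifs was in 35 of the member windows, against 13.9% of all promoters. The GATA motif was in 10.0% of member windows and 10.0% of all promoters, the CCAAT box in 30.0% and 34.4%, the GC box GGGCGG in 37.1% and 33.6%, and the TATA box TATAAA in 5.71% and 13.3%. Another 3 motifs of the 9 searched are given by name alone: a form of the NRF1 motif of 10 letters was in 11 windows (15.7%), against 4.44% of all promoters, the cAMP response element in 1.43% and 1.72%, and the CACCC box in 2.86% and 2.87%. The shorter NRF1 form was chosen for display after the counts of both were known, and it gives the larger share of members. The member windows had a median GC content of 55.6%, against 52.4% over all promoters, and its part in the shares was not tested. Matches to different motifs among the 6 given by their letters did not overlap in any member window. The NRF1 core was in 2 of the 12 matched members of at least 10 FPKM, Atp5mg and Ndufa12, and in 10 of the 42 under 1 FPKM, among them Sdha and Uqcrc1, where it lies 47 and 40 bases before the start. Its share was highest in the class between, at 1 to 10 FPKM, with 7 of 16 (43.75%). The 10-letter form was in 1 of the 12, 3 of the 16 and 7 of the 42. ETS matches were in 3 of the 12, 5 of the 16 and 12 of the 42, on both the high Uqcrh and the low Atp5f1a. Letters in a window are a description, and nothing about binding was measured.

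Between the groups, no nuclear gene of oxidative phosphorylation passed the test. With a filter of FPKM over 0.1 in at least 3 libraries, 66 of the 87 rows were tested among 3561 genes, 55 of them over the filter in all libraries and none through 1 group only. Ndufs6 and Ndufa2 reached the filter through DNAgel and Control libraries alone. They thus entered the comparisons with GS only through the groups in which they were higher. At an adjusted p of 0.05 (edgeR quasi-likelihood test with Benjamini-Hochberg adjustment over all genes), 0 of 66 members were called between DNAgel and GS, where 0.814% of all tested genes were called. Between DNAgel and Control 0 of 66 were called, against 0% of all genes, and between GS and Control 0 of 66, against 0.646%. DESeq2 and limma also called 0 members in each comparison. The lowest adjusted p of a member was 0.341 for Ndufs6 between DNAgel and GS, 0.994 between DNAgel and Control and 0.431 for Ndufb6 between GS and Control.

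**Figure D2:**
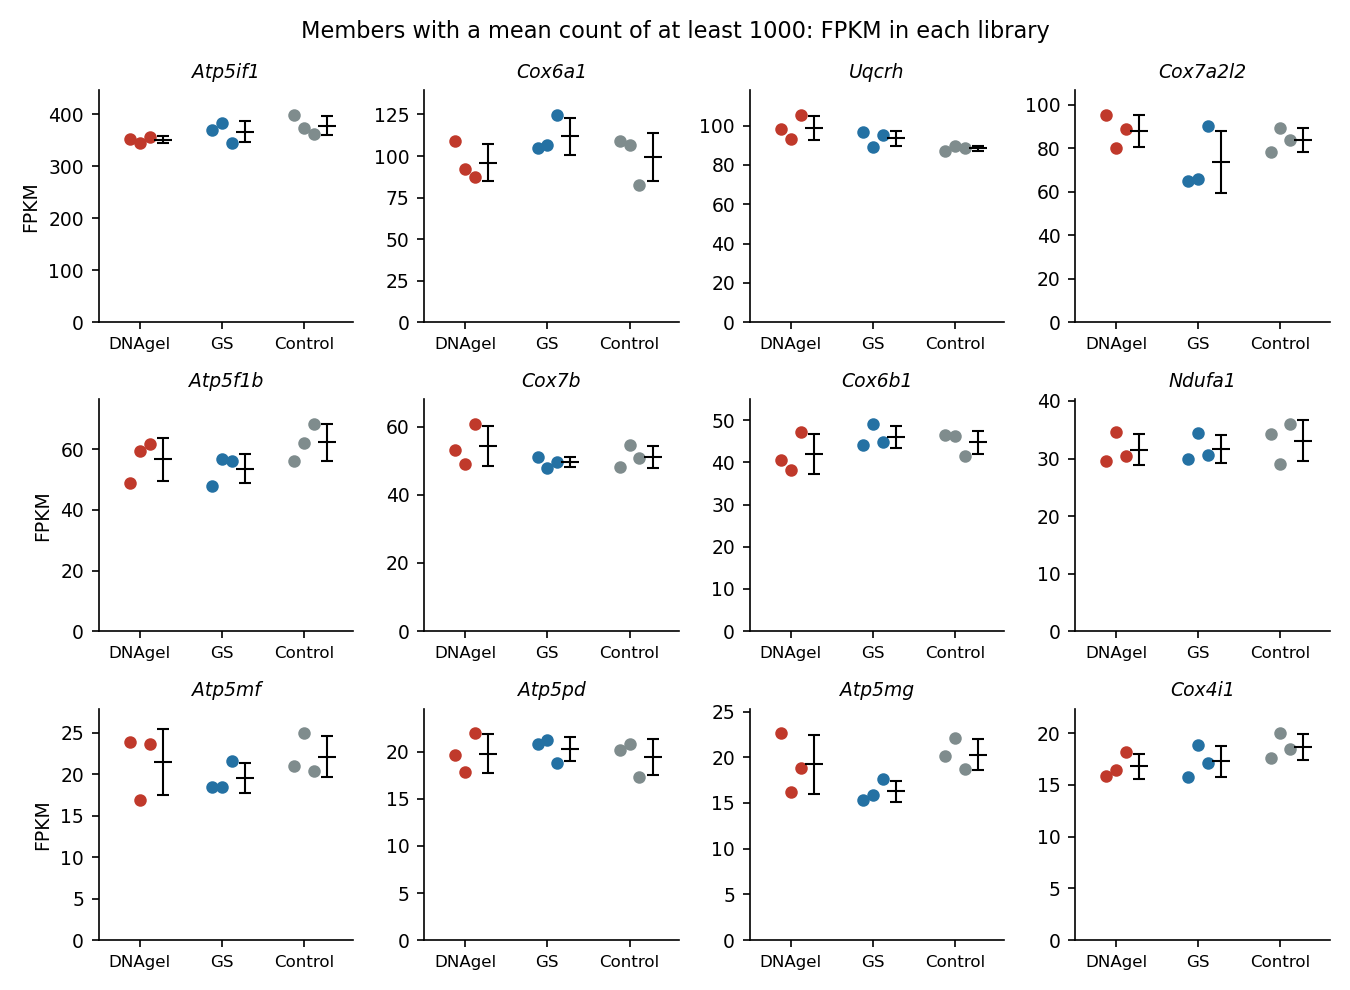
FPKM in each library of the 12 members with a mean count of at least 1000, with the DNAgel, GS and Control groups from left to right in each panel. Points are libraries and the black bars are mean ± SD (n = 3), with each axis starting at 0. No group lies apart from both others in any panel, and Atp5if1 stays between 344 and 398 FPKM.

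For the abundant members the data set narrow limits. The 12 members with a mean count of at least 1000 were Atp5if1, Uqcrh, Atp5f1b, Cox6a1, Atp5mg, Ndufa1, Cox4i1, Cox7a2l2, Cox7b, Atp5pd, Cox6b1 and Atp5mf. Their log2 fold changes ran from -0.31 to 0.17 between DNAgel and GS, from -0.08 to 0.23 between DNAgel and Control and from -0.15 to 0.33 between GS and Control. All 12 of the 95% intervals held 0 in each comparison, and their outermost bounds were -0.70 and 0.54, -0.38 and 0.54, and -0.54 and 0.71 in the same order. For Atp5if1 the log2 fold change was -0.16 ± 0.14 (SE) between DNAgel and GS, -0.04 ± 0.14 between DNAgel and Control and 0.12 ± 0.14 between GS and Control. For Cox6a1, the member of this class with the largest difference between DNAgel and GS, it was -0.31 ± 0.18 with an adjusted p of 0.698 (edgeR). Members with fewer counts were less certain: the median distance from the log2 fold change between DNAgel and GS to either bound of its interval was 0.31 in the 12 abundant members, 0.43 in the 21 with a mean count of 100 to 1000 and 1.02 in the 33 below 100. The low class holds the tested core, catalytic and F1 subunits apart from Atp5f1b. The intervals are not adjusted for the number of genes tested, while a call is. Differences of 1 log2 unit in these subunits, and larger ones, could thus go uncalled at this depth.

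**Figure D3:**
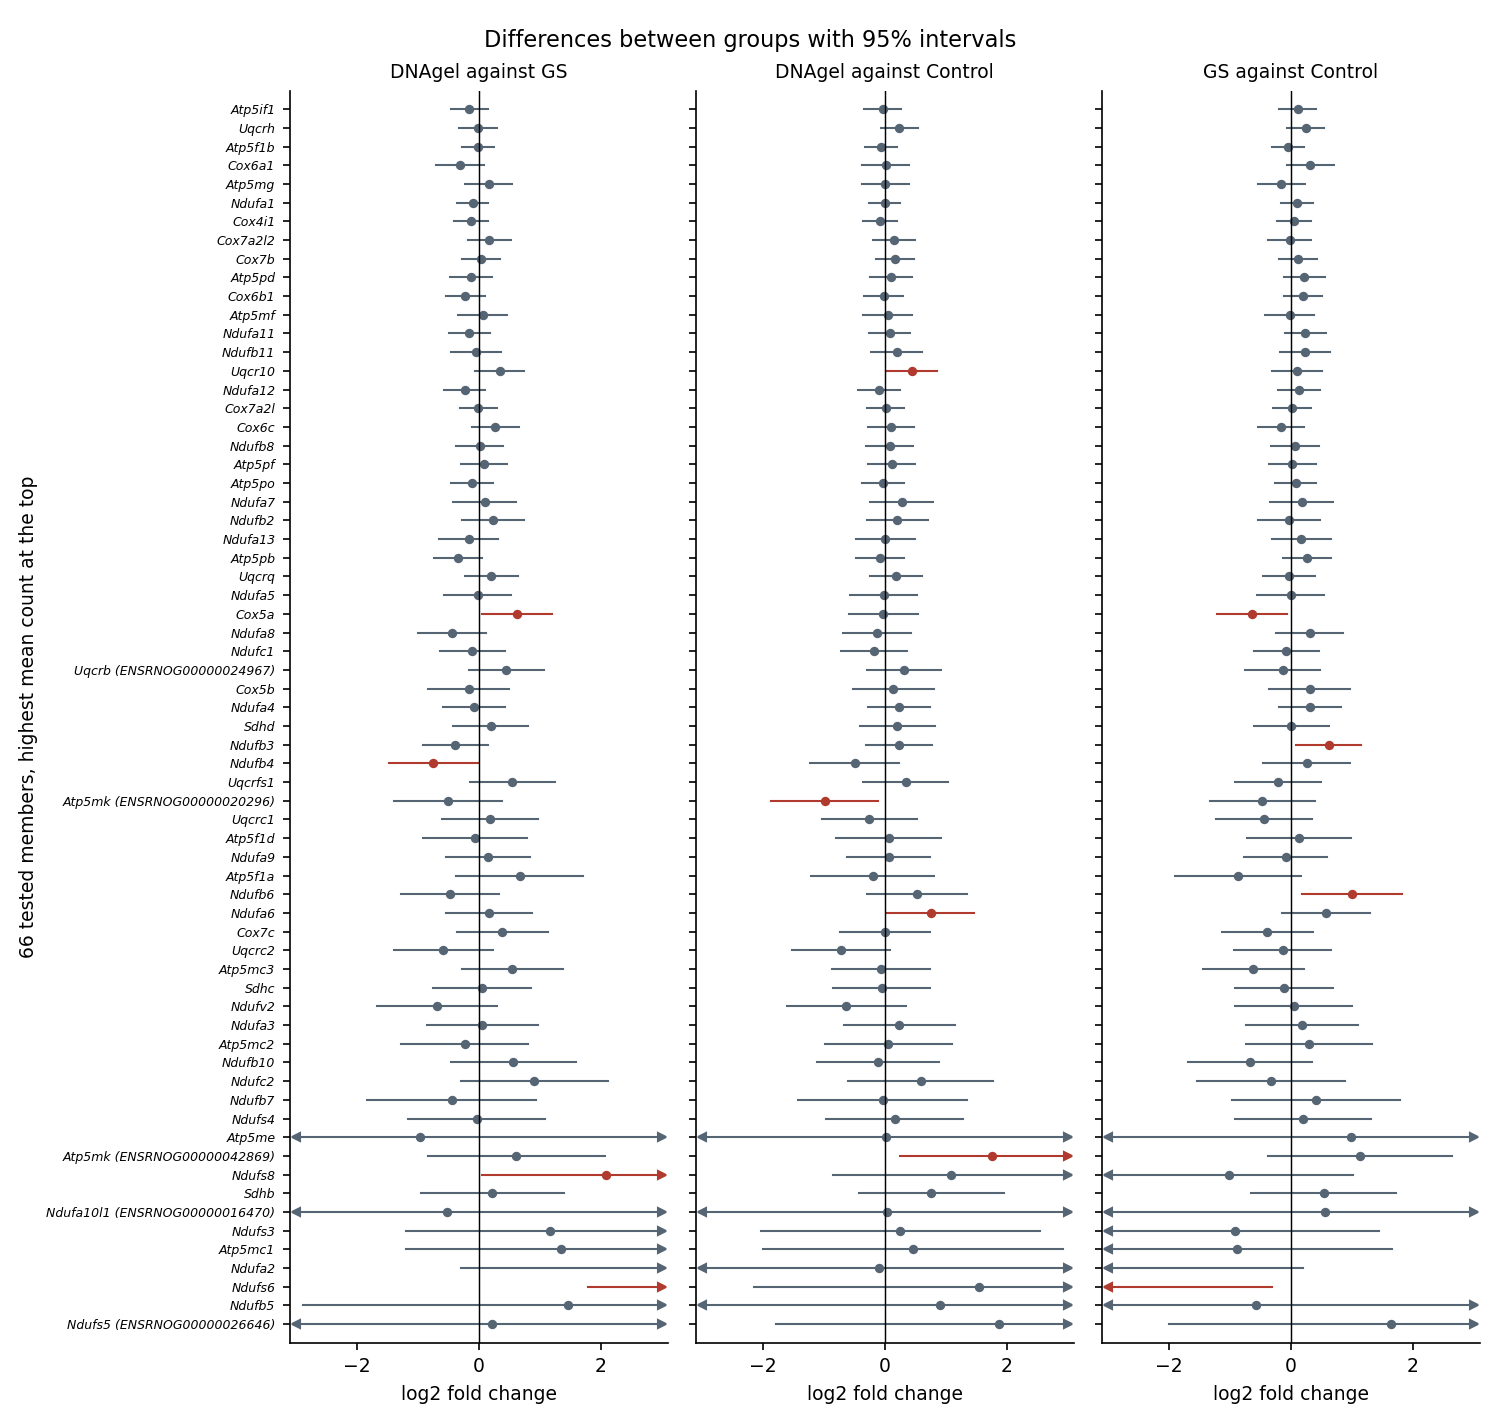
Log2 fold change (points) and 95% interval (lines) of the 66 tested members in the 3 comparisons, ordered by mean count with the most abundant at the top. Red marks an unadjusted p under 0.05, and arrows mark intervals that run past 3 on either side. Intervals widen down the page, and 4 members in each panel are red.

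Before adjustment, 4 members had p under 0.05 in each comparison. Between DNAgel and GS these were 3 with a higher value, Ndufs8, Ndufs6 and Cox5a (4.55% of members, against 5.98% of all genes), and 1 with a lower value, Ndufb4 (1.52%, against 3.45%). Between DNAgel and Control they were Ndufa6, Uqcr10 and the Atp5mk row ENSRNOG00000042869 with higher values (4.55%, against 1.52%) and the Atp5mk row ENSRNOG00000020296 with a lower value (1.52%, against 2.27%). Between GS and Control they were Ndufb3 and Ndufb6 with higher values (3.03%, against 2.56%) and Ndufs6 and Cox5a with lower values (3.03%, against 6.29%). Members whose libraries did not overlap between the groups, in TMM-normalised CPM (counts scaled to library size), were 5 between DNAgel and GS (7.58%, against 14.7% of all genes), 5 between DNAgel and Control (7.58%, against 10.2%) and 7 between GS and Control (10.6%, against 17.2%). The genes named from here to the end of the comparisons, beyond those the naming rule gave, were chosen after their values were seen.

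Cox5a, a matrix-side nuclear subunit of complex IV, had 1.75, 2.39 and 2.20 CPM with DNAgel, 1.23, 1.51 and 1.39 CPM with GS and 1.42, 2.25 and 2.77 CPM in Control. All 3 DNAgel libraries lay above all 3 GS libraries, while Control spanned both. An unnamed row outside the rule, ENSRNOG00000022490, is described as like subunit 5A and averaged 0.353 FPKM. How reads were shared between it and Cox5a was not tested. The log2 fold change was 0.62 ± 0.27 (SE) between DNAgel and GS with an adjusted p of 0.485, and -0.64 ± 0.27 between GS and Control with an adjusted p of 0.486 (edgeR).

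Ndufs6, a small subunit of the matrix arm of complex I, had 0, 35 and 21 counts with DNAgel, 0, 0 and 0 counts with GS and 6, 15 and 0 counts in Control. It was detected in 2 libraries each of DNAgel and Control, through which alone it reached the filter. Against a floor of 12 counts over the group, which is 3 times the most frequent count, it was at least 4.42-fold higher in DNAgel than in GS, and at least 1.49-fold lower in GS than in Control, on the row typed as a pseudogene. Without DNAgel 2 the first bound was 2.42, and without Control 2 the Control group was under the floor and gave no bound. DNAgel 1 and Control 3 were at 0 like the GS libraries, so the groups overlapped. Ndufs8, a core iron-sulfur subunit, had 41, 52 and 10 counts with DNAgel, 0, 18 and 6 counts with GS and 12, 18 and 26 counts in Control, and the groups overlapped.

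Ndufb3, Ndufb4 and Ndufb6, supernumerary subunits of the membrane arm of complex I, had their highest mean CPM in the GS group, and none passed the test. Ndufa1, Ndufa11, Ndufb7 and Ndufb11 of the same arm also had their highest mean CPM in GS. The arm had no common direction, as Ndufb2, Ndufb5, Ndufb10 and Ndufc2 had their lowest mean CPM in GS. For Ndufb2 the gap was small, at 4.19 CPM in GS and 4.26 CPM in Control. Ndufb3 had 1.35, 1.19 and 1.19 CPM with DNAgel, 1.99, 1.44 and 1.46 CPM with GS and 1.05, 1.07 and 1.04 CPM in Control, in 3 ranges that do not overlap. Its log2 fold change between GS and Control was 0.62 ± 0.25 (SE) with an adjusted p of 0.453 (edgeR). Ndufb6 had 0.749, 0.660 and 0.994 CPM with DNAgel, 1.24, 0.796 and 1.32 CPM with GS and 0.642, 0.739 and 0.294 CPM in Control. The GS range lay above the Control range and overlapped with that of DNAgel, and the 95% interval of the log2 fold change between GS and Control was 0.18 to 1.82, with an adjusted p of 0.431 (edgeR). Ndufb4 had 0.685, 1.37 and 0.557 CPM with DNAgel, 1.38, 1.47 and 1.55 CPM with GS and 1.53, 1.07 and 1.07 CPM in Control, with DNAgel 2 just under the lowest GS library. An unnamed row outside the rule, ENSRNOG00000034182, is described as the same subunit and averaged 0.325 FPKM, against 1.31 FPKM for Ndufb4. How reads were shared between it and Ndufb4 was not tested.

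Between DNAgel and Control, Uqcr10, a small subunit of complex III, had 14.8, 8.70 and 13.8 CPM with DNAgel, against 9.47, 9.62 and 8.42 CPM in Control. DNAgel 2 lay inside the Control range and the other DNAgel libraries above it, and the log2 fold change was 0.44 ± 0.19 (SE) with an adjusted p of 0.994 (edgeR). Ndufa6, an accessory subunit of complex I, had 0.909, 1.17 and 0.813 CPM with DNAgel, against 0.535, 0.753 and 0.427 CPM in Control, in ranges that do not overlap, with a log2 fold change of 0.75 ± 0.33 and the same adjusted p. The Atp5mk gene, which encodes a small membrane subunit of ATP synthase, gave opposite values on its 2 rows. The row ENSRNOG00000042869 had 28, 22 and 46 counts with DNAgel, against 8, 14 and 9 counts in Control, and the row ENSRNOG00000020296 had 57, 37 and 33 counts with DNAgel, against 106, 105 and 66 counts in Control. How reads were shared between these rows was not tested.

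The medians over the members lay close to those over all genes. The median log2 fold change of the 66 members was 0.02 between DNAgel and GS, against 0.03 over all tested genes, 0.06 between DNAgel and Control, against -0.01, and 0.06 between GS and Control, against -0.04. By complex, the medians between DNAgel and GS were -0.03 for complex I (30 tested), 0.19 for complex II (3), 0.20 for complex III (7), 0.01 for complex IV (10) and -0.05 for complex V (16). The comparisons with Control share the Control libraries, and those with GS the GS libraries, so their values are not independent.

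**Figure D4:**
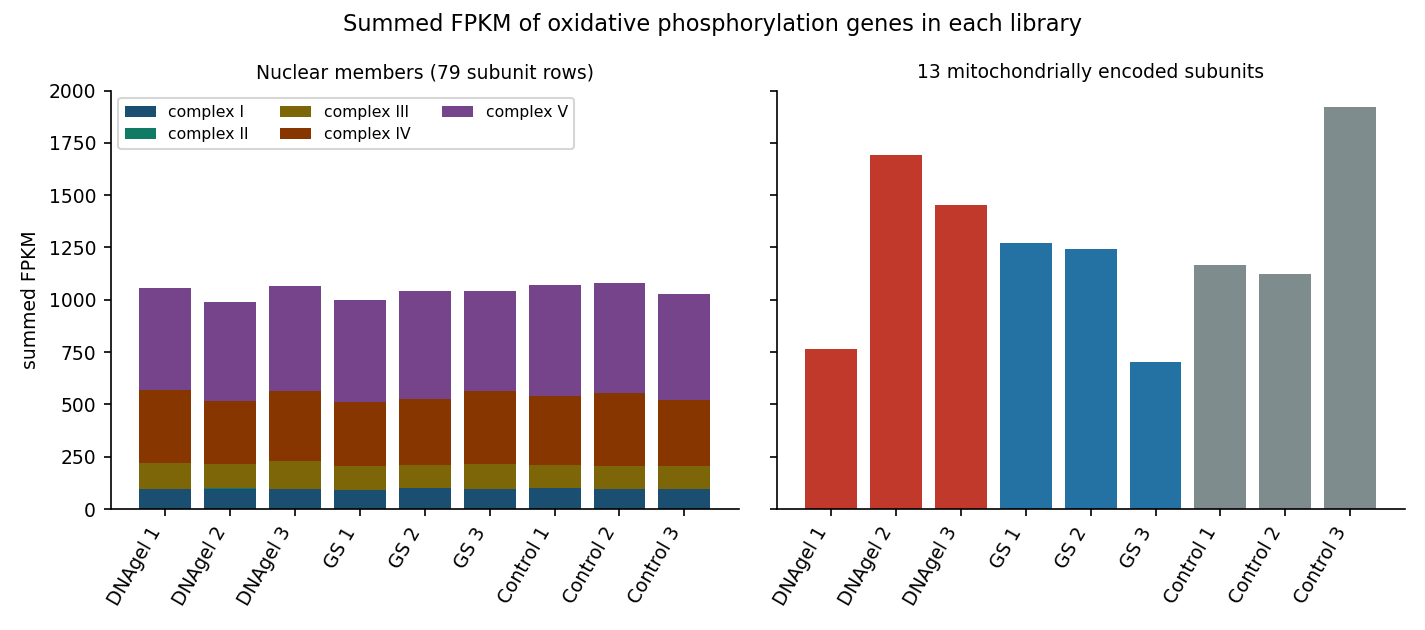
Summed FPKM in each library of the nuclear subunit rows, stacked by complex (left), and of the 13 mitochondrially encoded subunits (right), on the same linear axis from 0, with DNAgel, GS and Control from left to right. Totals of all members lie between 991 and 1079 FPKM on the left, while the mitochondrially encoded sums on the right run from 703 to 1920 FPKM.

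Summed over all 87 rows, the members held 1055, 991 and 1064 FPKM in the DNAgel libraries, 1001, 1044 and 1042 FPKM in the GS libraries and 1072, 1079 and 1028 FPKM in the Control libraries. The sums overlapped between all groups, with means of 1037 ± 39.6 FPKM with DNAgel, 1029 ± 24.3 FPKM with GS and 1060 ± 27.5 FPKM in Control (SD, n = 3). The FPKM scale is set by library totals that are mostly hemoglobin, so the sums were also taken as a share of the FPKM without hemoglobin genes. On that scale the members took 2.73% to 3.60% with DNAgel, 3.37% to 3.85% with GS and 2.64% to 3.54% in Control, with means of 3.18% in DNAgel, 3.67% in GS and 3.15% in Control, and the groups overlapped as well.

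Sums of single complexes that did not overlap between groups on one scale overlapped on the other. Complex III held 115 to 132 FPKM with DNAgel, against 108 to 111 FPKM in Control, while its share was 0.316% to 0.447% with DNAgel, against 0.286% to 0.362% in Control. Complex V held 474 to 500 FPKM with DNAgel, against 509 to 534 FPKM in Control, while its share was 1.31% to 1.69% with DNAgel, against 1.305% to 1.71% in Control. Without Atp5if1, complex V held 119 to 134 FPKM with GS, against 136 to 148 FPKM in Control, and the order of the means turned on the share scale, with 0.457% in GS and 0.427% in Control and overlapping ranges. Complex I overlapped between all groups in FPKM, while its share was 0.325% to 0.351% with GS, above 0.268% to 0.320% with DNAgel and 0.243% to 0.312% in Control. Complexes II and IV overlapped in each comparison on both scales. No test was made on a sum.

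The sum of the 13 mitochondrially encoded subunits of the same complexes was 766, 1690 and 1454 FPKM with DNAgel, 1272, 1242 and 703 FPKM with GS and 1168, 1125 and 1920 FPKM in Control. The coefficient of variation over the 9 libraries was 2.92% for the nuclear sum and 31.2% for the mitochondrially encoded sum in FPKM, and 12.8% and 25.4% as shares without hemoglobin genes. The nuclear sum thus varied less on both scales, by a margin that depended on the scale. None of the 13 mitochondrially encoded genes was called in any comparison.

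**Figure D5:**
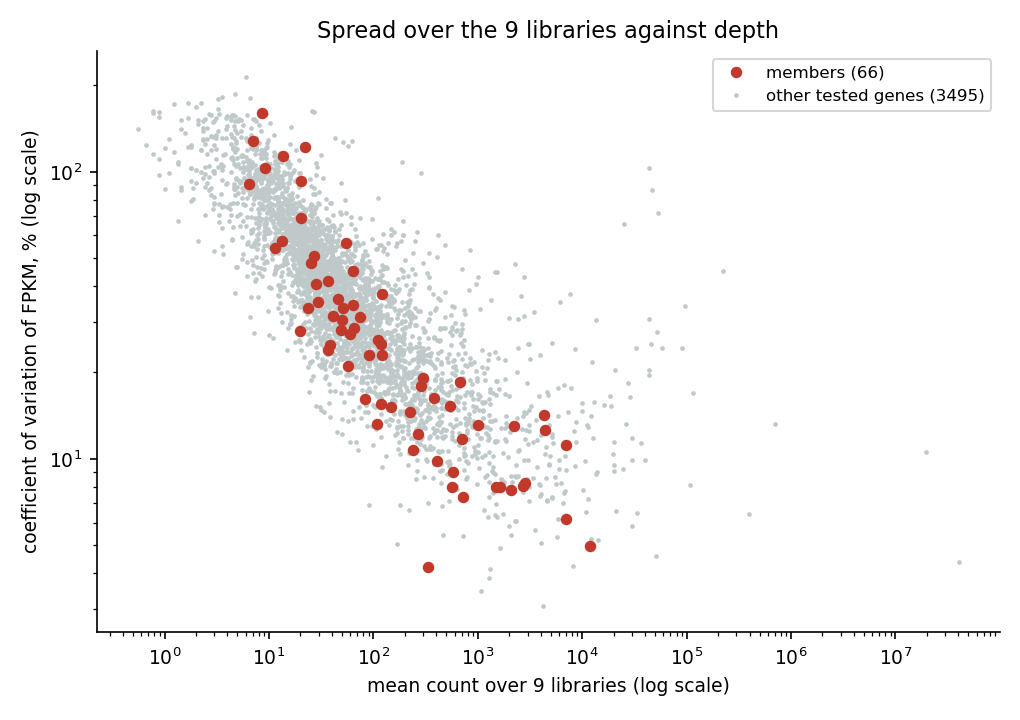
Coefficient of variation of FPKM over the 9 libraries (log scale) against mean count (log scale) for the 66 tested members in red and the other 3495 tested genes in grey. Of the members, 8 of 12 with a mean count of at least 1000, 17 of 21 at 100 to 1000 and 20 of 33 below 100 lie under the median of all tested genes of their class, and the others lie above it.

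The median member had a lower coefficient of variation of FPKM than the median tested gene of its count class, and this depended on the scale among the most abundant members. In the class with a mean count of at least 1000 the median coefficient of variation was 8.16% for the 12 members, against 11.9% for all 273 tested genes of that class. It was 15.2% for 21 members, against 20.3% for 862 genes, at a mean count of 100 to 1000, and 36.2% for 33 members, against 48.0% for 2426 genes, below 100. As shares of the FPKM without hemoglobin genes, the medians were 16.1% for the 12 abundant members, against 15.6% for their class, 18.7%, against 20.9%, in the middle class and 40.4%, against 46.6%, below 100. Among the members above the median of their class was Cox5a, at 37.7% in FPKM and 28.1% as a share. Atp5po, the peripheral stalk subunit that confers oligomycin sensitivity, had the lowest value of the members in FPKM at 4.21% and 11.9% as a share, with 3.52 ± 0.0548 FPKM in DNAgel, 3.56 ± 0.0856 FPKM in GS and 3.79 ± 0.144 FPKM in Control (SD, n = 3). These are descriptions of the 9 libraries, with no test.

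Other mitochondrial genes gave no calls either. None was called among the tested electron carriers and assembly factors of complexes III and IV (6 tested), the assembly factors of complexes I and V (1), the enzymes of the citric acid cycle (10), the mitochondrial carriers and channels (10), the import machinery (13) and the regulators of mitochondrial biogenesis (1). Slc25a39, a carrier of the inner membrane that imports glutathione, stood out among them at a mean of 146 FPKM, and Timm23 of the import channel came nearest to a call, with a log2 fold change of 1.04 ± 0.23 (SE) between GS and Control and an adjusted p of 0.0653 (edgeR). Of the 11 rows of regulators, 10 averaged under 0.05 FPKM, among them Nrf1 at 0.0144 FPKM and Gabpa, the DNA-binding part of GABP, at 0.0376 FPKM. The highest was Yy1, a zinc finger transcription factor, at 0.234 FPKM, and it was the one that passed the filter. The summed FPKM of the electron carriers and assembly factors of complexes III and IV was 3.57 to 3.70 with DNAgel, against 3.97 to 4.06 with GS, and its shares without hemoglobin genes did not overlap either. The sums of the other 5 lists overlapped between all groups in FPKM. As shares, the import machinery held 0.0399% to 0.0478% with DNAgel, just under 0.0479% to 0.0587% with GS, and the remaining lists overlapped. Enzymes of the citric acid cycle were low as well, with Dlst highest at 0.995 FPKM and the citrate synthase gene Cs at 0.224 FPKM.

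Among markers of blood cells, 2 genes were called. Of 16 tested platelet markers, Thbs1, the adhesive glycoprotein thrombospondin, had a higher value in DNAgel than in GS by 1.298 on the log2 scale with an adjusted p of 0.0112 and a log2 fold change of -1.14 between GS and Control with an adjusted p of 0.0257 (edgeR). Of 6 tested monocyte markers, Apoe, an apolipoprotein that macrophages make, had a log2 fold change of 2.25 between DNAgel and GS (adjusted p = 0.0169, edgeR) and of -2.08 between GS and Control (adjusted p = 0.0257, edgeR). All 4 calls were lost when only the 6 libraries compared were fitted (adjusted p 0.0529 to 0.143, edgeR), and each was lost without certain single libraries. The log2 fold changes stayed close in size under these fits, the replicate block and leaving out each library: 1.17 to 1.52 for Thbs1 and 1.85 to 2.63 for Apoe between DNAgel and GS, and -1.36 to -1.01 for Thbs1 and -2.47 to -1.69 for Apoe between GS and Control. Between DNAgel and GS, Thbs1 was lost without DNAgel 1 (0.0582) or GS 1 (0.0829), and Apoe without DNAgel 1 (0.0703) or DNAgel 2 (0.0900), all as adjusted p values of edgeR. Between GS and Control, Thbs1 was lost without GS 1, GS 3 or any Control library (0.0851 to 0.152), and Apoe without GS 2, any DNAgel library or any Control library (0.0503 to 0.144). With the replicate block Thbs1 had an adjusted p of 0.0706 between GS and Control, and Apoe had 0.0529 between DNAgel and GS and 0.0799 between GS and Control (edgeR). Between DNAgel and GS, 15 of 19 alternatives kept the call of Thbs1 and 16 of 20 that of Apoe. Between GS and Control, 10 of 19 kept that of Thbs1 and 11 of 20 that of Apoe. Of the 23 tested erythroid, 4 tested neutrophil and 11 tested lymphocyte markers none was called. The summed FPKM of the erythroid list was 1555 to 1657 with DNAgel, 1515 to 1817 with GS and 1604 to 1782 in Control. The platelet list held 380 to 502 FPKM with DNAgel, 361 to 469 FPKM with GS and 427 to 586 FPKM in Control, and the lymphocyte list 2.25 to 4.66, 2.55 to 3.71 and 3.39 to 4.82 FPKM in the same order. The neutrophil list held 19.5 to 24.6 FPKM with DNAgel, 15.1 to 18.5 FPKM with GS and 14.8 to 23.1 FPKM in Control, and its DNAgel and GS libraries did not overlap. As a share without hemoglobin genes they did, at 0.0656% to 0.0679% with DNAgel and 0.0487% to 0.0674% with GS, and DNAgel lay above the 0.0454% to 0.0596% of Control. The monocyte list held 9.10 to 13.7 FPKM with DNAgel, 5.51 to 7.40 FPKM with GS and 8.50 to 14.1 FPKM in Control. Without Apoe, which had 4.17 to 5.31 FPKM with DNAgel, 0.320 to 1.38 FPKM with GS and 4.25 to 4.55 FPKM in Control, the sums of that list overlapped between all groups, at 4.93 to 8.41, 5.19 to 6.02 and 4.25 to 9.59 FPKM. Those sums are mostly Lyz2, at a mean of 5.67 FPKM, and say little about the lower markers. Over the 6 tested monocyte markers the median log2 fold change was 1.51 between DNAgel and GS and -1.27 between GS and Control. Itgam, Cd14 and Cd68 of the monocyte list averaged under 0.01 FPKM. The part of these differences in the values of Cox5a and the other members above was not tested.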

How the data were processed

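RNA of rat whole blood was sequenced in 9 libraries, 3 per group. The authors deposited 1 table with unscaled whole-number estimated counts and with FPKM, which scales to transcript length and library total. Their processing notes list StringTie 1.3.4d, HISAT2 2.0.4, cutadapt 1.9, edgeR, DESeq2 and UMI-tools, and neither role nor order is stated. They name a mouse build, while the table holds rat identifiers, so no build is assigned to its coordinates. Members and gene lists were chosen with earlier results of these data known. The summaries of spread, the shares of FPKM without hemoglobin genes as a second scale for sums, and the promoter motifs were added after the values had been seen and carry no test. Counts of all 9 libraries were fitted once with edgeR 4.0.16 (TMM, robust quasi-likelihood F test, R 4.3.3) after a filter that kept genes above 0.1 FPKM in 3 or more libraries, with Benjamini-Hochberg adjustment over all 3561 genes and a threshold of 0.05. The script was tested on simulated data. Standard errors are the log2 fold change divided by the root of F, and intervals cover 95%. Named members were those past the threshold, the highest pair of each complex, the member with the largest statistic of each complex and comparison, and the fixed paralog sets. Alternatives were DESeq2 1.42.0, limma 3.58.1 on log2(FPKM + 0.1) and log2(FPKM + 1), other scalings, filters and counting units, only the 6 libraries compared, a replicate block and leaving out each library. Replicates differed by more than sampling noise, with a chi-square per gene of 44.0 to 118.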

Additional observations from a re-analysis of the deposited data

How the results depend on the processing

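No member passed the threshold under any of the 20 alternatives in any comparison, and the lowest adjusted p of a member was 0.0918 with DESeq2 between DNAgel and GS. The median log2 fold change of the members between GS and Control was 0.06 and became -0.13 with limma on log2(FPKM + 0.1) and -0.12 with library totals alone. The cause was not tested. Library totals alone also shifted the median of all genes to 0.15 between DNAgel and GS, -0.09 between DNAgel and Control and -0.23 between GS and Control. With one library left out at a time, the median of the members ranged from -0.05 to 0.09 between DNAgel and GS, from 0.02 to 0.18 between DNAgel and Control and from -0.04 to 0.12 between GS and Control. Of 1530 values of named members under the alternatives, 113 had the other sign, in 31 of 78 results, all of them not called. Counts over all genes depended on the tool and filter: between DNAgel and GS 7 to 53 genes were called higher and 0 to 10 lower, against 29 and 0 in edgeR, between GS and Control 0 to 6 were called higher and 4 to 46 lower, against 1 and 22, and between DNAgel and Control at most 2 were called higher and 3 lower, against 0.

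Deviations of same-numbered libraries from their group means had correlations of -0.103 to 0.103. Noise at low counts can hide a shared source, so these values cannot settle whether the libraries are paired. With the replicate block, 0 members were called, the medians of the members were 0.01, 0.07 and 0.07 in the order above, and 14 genes in all were called higher between DNAgel and GS and 9 lower between GS and Control. Depth limits the members with a mean count under 50, which are 43 of 87 rows and 22 of those tested.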
